A study of Mus musculus with 16 samples.

Results

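The insulin and IGF1 signalling genes described here are 10 of the 55385 genes in the count table. They were taken by symbol and comprise the ligand Igf1, the receptors Insr and Igf1r, the receptor substrates Irs1 and Irs2, the phosphoinositide 3-kinase subunit Pik3r1, the kinase Akt2 and the IGF binding proteins Igfbp1, Igfbp2 and Igfbp3. All 10 were measured by short-read RNA-Seq in 16 libraries, 1 fed and 1 fasting library for each of 8 tissues: liver, muscle, heart, kidney, lung, spleen and both white and brown adipose tissue. The animals were male C57BL/6 mice bought at 12 weeks of age, with no transgene or deletion named for either group. The fed mice had chow and water without limit, the fasting mice had no food for 24 h, and each group's 3 mice contributed equal amounts of a tissue to 1 pool. Each library is therefore 1 pool, no value has a replicate error, and a comparison of a fed with a fasting library compares those libraries and not the conditions.

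Insulin and IGF1 bind related receptor tyrosine kinases, which phosphorylate the IRS adaptors. These recruit phosphoinositide 3-kinase through regulatory subunits such as Pik3r1, and the lipid that the kinase makes activates AKT. AKT in turn keeps FoxO transcription factors out of the nucleus, and Igfbp1 and Irs2 are textbook FoxO targets that insulin represses. The liver makes most of the circulating IGF1 under the control of growth hormone, and IGF binding proteins hold the ligand in the blood and in tissues.

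The promoters of 3 members are shown because they hold a short sequence tied to this control, CAAAACA, the core of the insulin response sequence. A promoter window here is 250 bases before to 50 bases after a start site, taken from RefSeq (GRCm38.p6), and 9 of the 10 members matched at least 1 window. Insr had no entry. Both CAAAACA and the FoxO binding element GTAAACA were searched on both strands. They share their last letters, AAACA, and cannot match at the same bases. CAAAACA occurred in 6.28% and GTAAACA in 3.65% of the 32851 windows of that length. Igfbp1, Irs2 and Irs1 held CAAAACA and no member held GTAAACA. A match is a string of letters and not a shown binding site. Capitals mark the match, which reads TGTTTTG where it lies on the other strand. The Igfbp1 window (chr11:7197537-7197836, plus strand) has it at -108 from the start site, the Irs2 window (chr8:11008880-11009179, minus strand) at -37, and the Irs1 window (chr1:82291390-82291689, minus strand) at -111 and -32. The Irs2 window lies wholly upstream of the counted Irs2 gene, whose 5' end is at 11008458. Its RefSeq start site thus differs from that of the counted gene.
Igfbp1: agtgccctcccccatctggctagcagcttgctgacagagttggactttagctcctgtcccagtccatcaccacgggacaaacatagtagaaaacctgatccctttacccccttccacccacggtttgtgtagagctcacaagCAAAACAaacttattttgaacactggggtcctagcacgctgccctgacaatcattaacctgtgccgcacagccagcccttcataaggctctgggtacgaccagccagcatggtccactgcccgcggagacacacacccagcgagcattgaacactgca
Irs2: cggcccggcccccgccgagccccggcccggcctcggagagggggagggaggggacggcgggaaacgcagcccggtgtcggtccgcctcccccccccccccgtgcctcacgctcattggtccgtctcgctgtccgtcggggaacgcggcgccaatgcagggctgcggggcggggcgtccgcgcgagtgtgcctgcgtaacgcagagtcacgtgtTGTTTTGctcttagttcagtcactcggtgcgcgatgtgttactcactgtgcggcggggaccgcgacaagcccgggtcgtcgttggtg
Irs1: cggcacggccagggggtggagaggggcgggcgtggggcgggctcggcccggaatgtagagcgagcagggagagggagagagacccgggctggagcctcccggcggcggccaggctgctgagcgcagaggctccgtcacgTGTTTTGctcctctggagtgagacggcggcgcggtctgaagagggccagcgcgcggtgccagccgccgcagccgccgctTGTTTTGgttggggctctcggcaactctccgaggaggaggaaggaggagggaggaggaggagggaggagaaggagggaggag

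Values are CPM, the gene's count scaled by the total count of its library. The totals ran from 14245178 to 36069968, so that 3 counts, the floor used here, were 0.0832 to 0.211 CPM. A gene was called in a tissue when the log2 fold change of fasting over fed, with 0.01 CPM added to each, passed 0.5 in size and Fisher's exact test (two-sided) gave an unadjusted p-value under 0.01. Bracketed ranges after a ratio are exact 95% intervals, which cover counting error only. Marker genes checked the tissue labels, with Alb at 63761 and 52136 CPM in liver, Myh4 at 69875 and 73319 CPM in muscle and Adipoq at 2506 and 2247 CPM in white adipose tissue, each the highest of the 8 tissues. Several pairs of libraries also differed in markers of other cells. In white adipose tissue the sum of 12 genes of ciliated and tubule epithelium, a list written after the values were seen, was 66.4 CPM fed and 2019 CPM fasting. Kidney held that list at 10142 and 8796 CPM and lung at 1111 and 1025 CPM, while the 7 kidney tubule genes, which include Kap, summed to 34.5 CPM in fed and 40.1 CPM in fasting white adipose tissue. The sum of 12 pancreatic acinar genes was 626 CPM in fed and 11.9 CPM in fasting spleen. The 8 skeletal muscle fibre genes summed to 2578 CPM in fed and 1183 CPM in fasting brown adipose tissue, and the 6 cardiomyocyte genes to 973 and 488 CPM in lung. In such bulk tissue, fewer cells of a type and less RNA per cell cannot be told apart.

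Of the 80 values that 10 members in 8 tissues give, 22 rose and 9 fell by this rule, 48 were not called and 1, Igfbp1 in heart, had no count in either library. Without the white adipose libraries 16 rose and 7 fell of 70. White adipose tissue had the most calls, with 6 members up and 2 down, where 13.2% of its 29956 genes with a count were called up and 5.84% down. Only 17494 of those 29956 genes reached 1 CPM, and genes with few counts can seldom be called. This limit holds for the shares of the other tissues as well. Brown adipose tissue had 3 up and 3 down against 5.39% and 7.58% of all its genes. In liver 3 members rose and 1 fell, against 4.46% and 9.52%. The members that rose differed between these tissues, with Irs2 the member called up in all of them. Muscle had 3 up and 1 down, where 4.42% of all genes were up and 9.39% down. Kidney likewise had 3 up and 1 down, against 2.77% and 3.93%. Heart had 3 up and none down, with a background of 4.33% and 5.80%. Spleen and lung had 1 call each. In spleen it was a rise, where 2.31% of genes were up and 1.62% down, and in lung a fall, where 2.68% were up and 6.49% down. The median log2 fold change of the members was 0.56 in white adipose tissue, 0.43 in muscle and 0.37 in heart, and the medians of all genes at 1 CPM or more there were 0.07, -0.14 and -0.07. It was lowest in lung, at -0.04 beside -0.09 for all genes. These calls take counting error alone. When samples were assumed to vary with a coefficient of 0.2 (edgeR's exact test), 18 of the 31 were lost, and with 0.4, 28 were lost. TMM factors in place of library totals shifted log2 fold changes by 0.12 in liver and -0.11 in white adipose tissue, and by less than 0.1 elsewhere. Values that rest on few counts could move by other amounts, as Igfbp1 in muscle did, from 1.05 to 1.19.

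**Figure D1:**
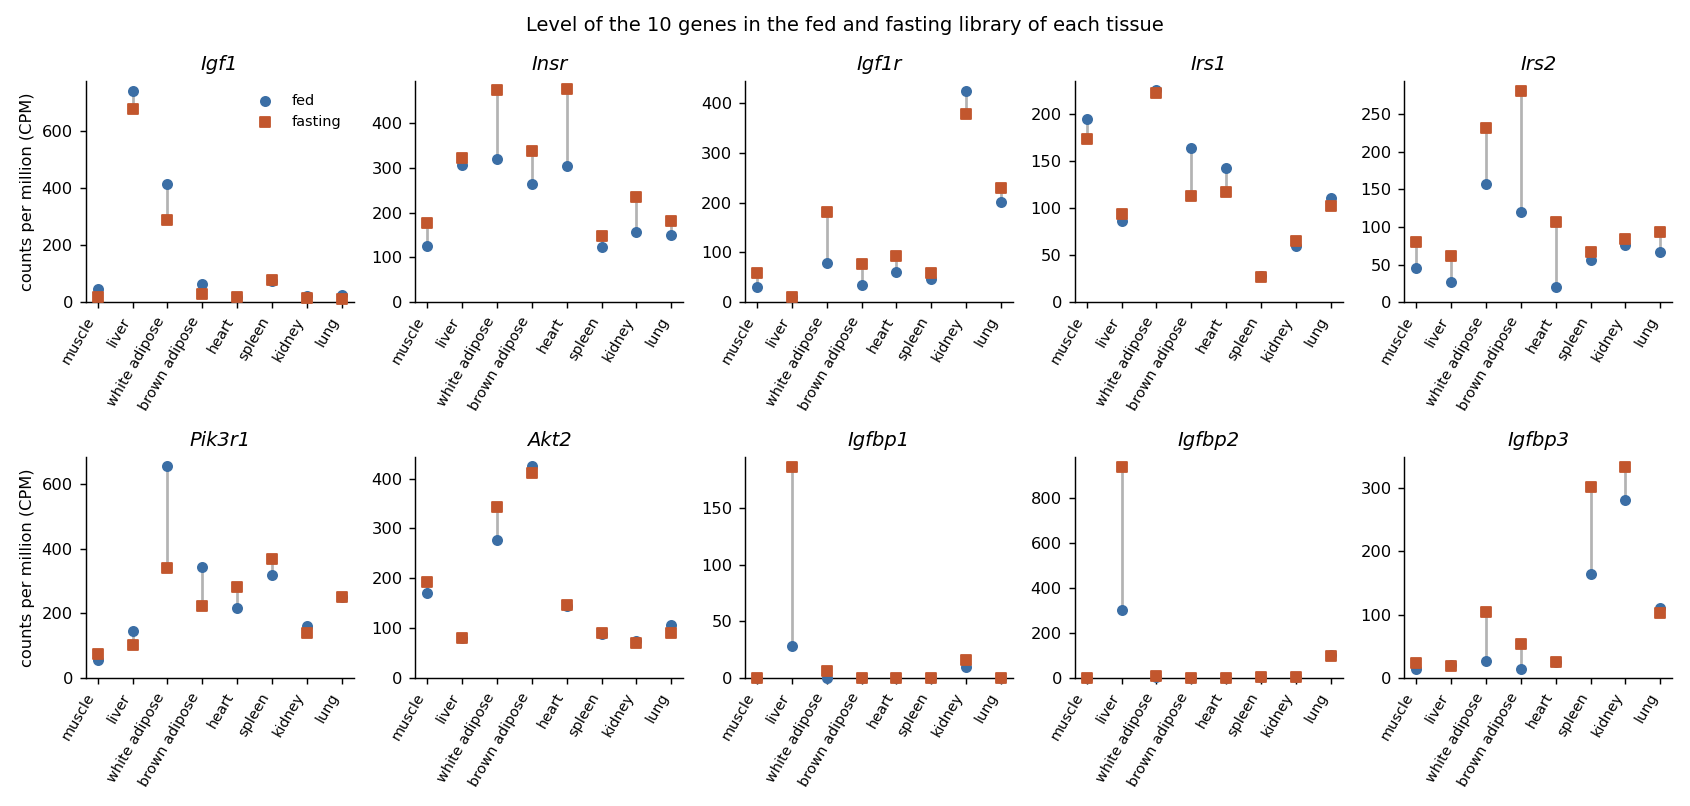
Level of each gene in CPM (vertical axis, from 0, on a scale of its own per gene) in the fed library (circle) and the fasting library (square) of each of 8 tissues (horizontal axis). Insr and Irs2 lay higher in the fasting library in all 8 tissues, Igf1 lay lower in 7, and the largest step of Igfbp1 and of Igfbp2 in CPM was that of liver, from 28.1 to 186 and from 300.4 to 937.

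**Figure D2:**
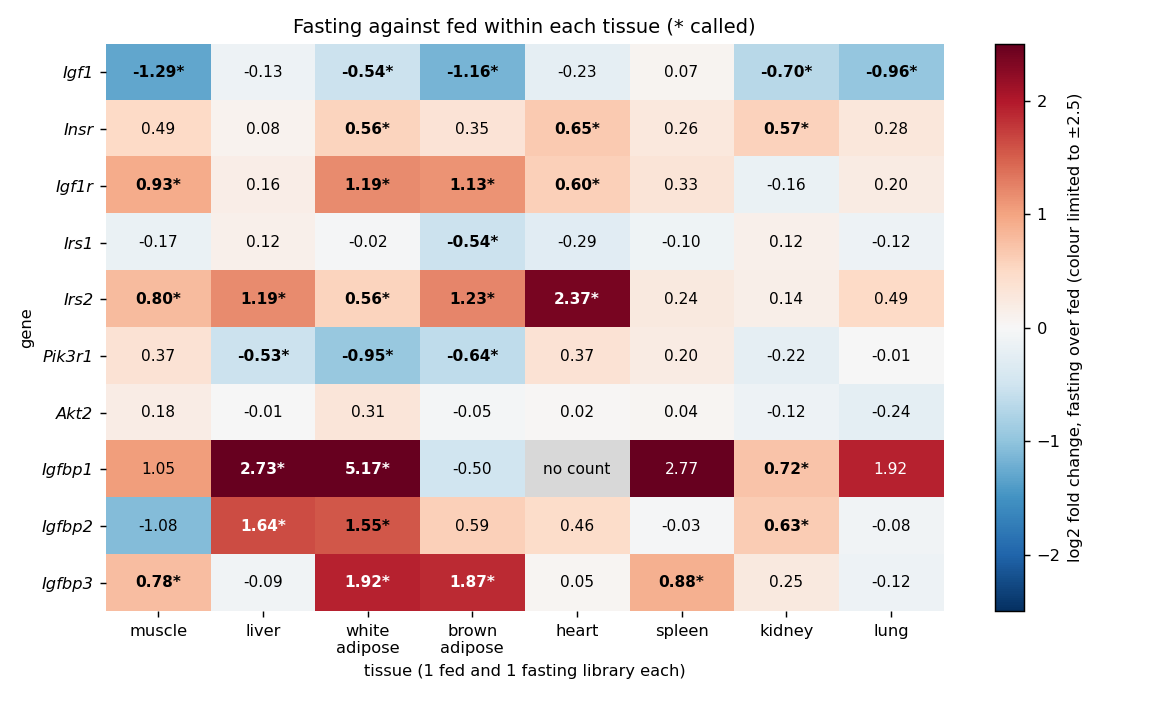
The log2 fold change of fasting over fed for each gene (rows) and tissue (columns), with bold type and an asterisk for called values and grey for no count. Called falls belonged to Igf1, Pik3r1 and Irs1 alone, and called rises to Insr, Igf1r, Irs2 and the 3 binding proteins. The uncalled Igfbp1 values of muscle, brown adipose, spleen and lung rest on 10 counts or fewer in each library.

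For changes shared by the tissues, edgeR was fitted to the 16 libraries together with the tissue as a block, so that the spread of the fasting change between tissues served as the error. It leaves 7 residual degrees of freedom, and the 8 tissues come from the same pair of mouse pools and are not independent animals. Of the 9 members that passed the filter on low counts, 3 rose and none fell at an adjusted p-value under 0.05, where 2.31% of 17296 genes tested rose and 2.08% fell. Insr rose by 0.45 ± 0.07 (SE) on the log2 scale (edgeR, adjusted p = 0.0154), Irs2 by 0.90 ± 0.22 (adjusted p = 0.0472) and Igf1r by 0.59 ± 0.14 (adjusted p = 0.0483). Insr kept its call with each tissue left out in turn, at adjusted p between 0.0176 and 0.0471 by edgeR, and lost it without both adipose tissues (0.0629). The other two calls stood close to the threshold. The edgeR adjusted p of Irs2 was 0.0543 to 0.122 without any one of muscle, liver, white adipose, brown adipose, heart, kidney or lung. That of Igf1r was 0.0604 to 0.120 without any one of those other than kidney, or without spleen. Whether the fasting change differed between tissues could not be tested, because 1 library per group leaves no error for it. All 9 members differed in level between tissues in the same fit, as did 96.8% of all genes tested.

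**Figure D3:**
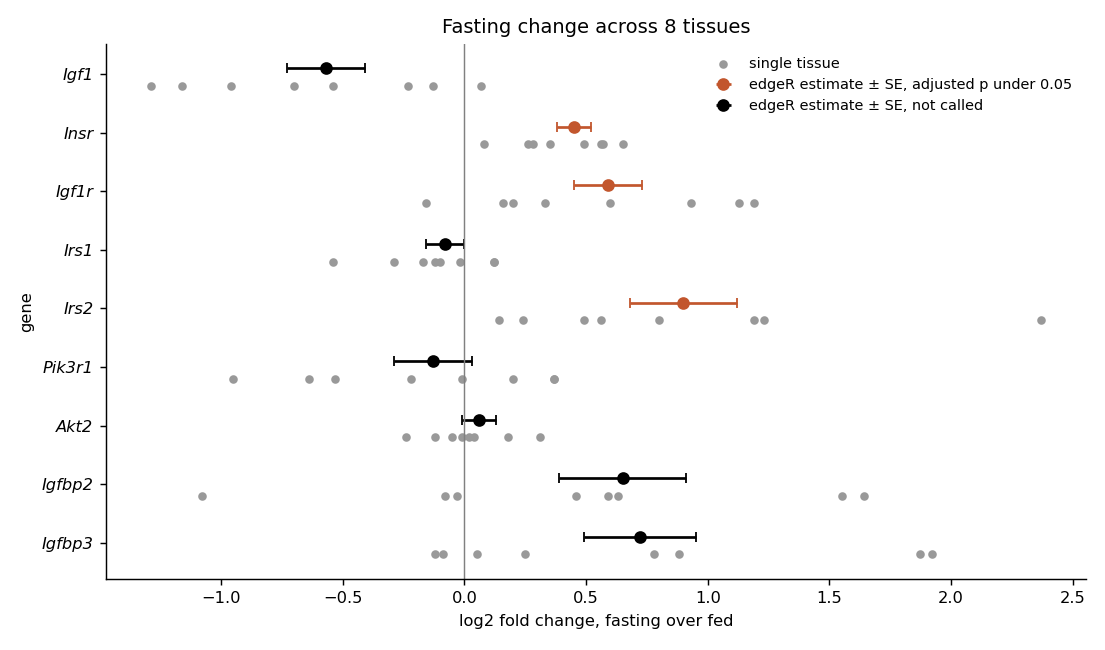
Fasting change across tissues for the 9 genes tested (rows), as log2 fold change of fasting over fed (horizontal axis). Large points with bars are edgeR estimates ± SE over 16 libraries and small grey points are the 8 single tissues. The estimates of Insr (0.45), Igf1r (0.59) and Irs2 (0.90) passed the threshold, and the tissue values of Akt2 spread from -0.24 to 0.31.

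Igf1 (ENSMUSG00000020053.18, chr10:87858265-87937042, plus strand, GRCm38), the ligand of the IGF1 receptor, was the member with the most called falls. It fell in muscle from 45.5 to 18.7 CPM, in brown adipose tissue from 62.5 to 27.9 CPM, in lung from 24.2 to 12.5 CPM, in kidney from 21.8 to 13.4 CPM and in white adipose tissue from 415 to 286 CPM. The ratio of fasting to fed was smallest in muscle, at 0.410 (0.370–0.454), and largest among these 5 in white adipose tissue, at 0.690 (0.669–0.711). In liver, the main source of circulating IGF1, Igf1 was at 737 CPM fed and 675 CPM fasting, a ratio of 0.916 (0.896–0.936) that did not reach the fold threshold. Heart (20.0 and 17.1 CPM) and spleen (75.0 and 78.8 CPM) were not called either. Per length, as RPKM (CPM per 1000 bases of the gene's exons), Igf1 was highest in liver, at 68.1 to 74.4 RPKM, then white adipose tissue, at 28.9 to 41.9, then spleen, at 7.57 to 7.95, and these ranges of the fed and fasting library did not overlap. From brown adipose tissue down to kidney each tissue's range overlapped the next. With TMM factors liver and white adipose tissue stayed first and second, and spleen (5.03 to 5.34 RPKM) overlapped muscle (3.53 to 8.16 RPKM). The liver range was then 110.0 to 110.2 RPKM, so the small fall of Igf1 in liver depends on the scaling. Across tissues the estimate was -0.57 ± 0.16 (edgeR, adjusted p = 0.0636; DESeq2, adjusted p = 0.0104), which passed the threshold without spleen (0.0436) and with plain library totals (0.0473). In lung the cardiomyocyte genes and the B and T cell genes (209 CPM fed, 91.1 CPM fasting) also lay lower in the fasting library, as the muscle fibre genes did in brown adipose tissue. Fed muscle itself held Igf1 at 45.5 CPM and muscle fibre genes at 148096 CPM. In white adipose tissue the epithelial genes lay higher in the fasting library (66.4 and 2019 CPM). The part of these cells in the Igf1 values was not tested.

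Growth hormone drives Igf1 transcription in liver, so 6 genes of that input were read beside it. In liver 5 of the 6 fell and none rose, where 9.52% of all genes with a count fell. Elsewhere the list had 1 up and 3 down in white adipose tissue, 1 up and 2 down in muscle, 2 down in heart, 1 down each in brown adipose tissue and kidney, and no call in spleen or lung. Over all genes 13.2% were up and 5.84% down in white adipose tissue, 4.42% and 9.39% in muscle, and 5.80%, 7.58% and 3.93% down in heart, brown adipose tissue and kidney, so that 1 rise among 6 in white adipose tissue is near the background. Ghr, the growth hormone receptor, went from 769 to 337 CPM and Cish, a target and inhibitor of the receptor's signal, from 47.3 to 6.89 CPM. Jak2, Stat5a and Stat5b, which carry the signal, fell by 0.54, 0.53 and 0.82 on the log2 scale. The shift of 0.12 that TMM factors give in liver takes Jak2 and Stat5a under the threshold and leaves the other 3 called. The median of the 6 was -0.68 in liver, beside -0.11 for all genes with a count. Igfals, which encodes the acid-labile subunit that holds IGF1 with IGFBP3 in blood, fell from 112 to 69.4 CPM in liver. In white adipose tissue it went from 44.5 to 7.33 CPM, the largest fall of any pathway gene there at 10 CPM or more. The epithelial genes lay higher in that fasting library (66.4 and 2019 CPM), and their part in the Igfals value was not tested.

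Insr (ENSMUSG00000005534.10, chr8:3122061-3279617, minus strand), the insulin receptor, lay higher in the fasting library of every tissue. It rose in heart from 303 to 476 CPM, in kidney from 157 to 235 CPM and in white adipose tissue from 319 to 473 CPM, with ratios of 1.57 (1.52–1.63), 1.49 (1.43–1.55) and 1.48 (1.44–1.52). Muscle, at 126 and 177 CPM, had a log2 fold change of 0.49, just under the threshold. The smallest difference was in liver, at 306 and 323 CPM (ratio 1.06, 1.02–1.09). The log2 fold changes thus spanned 0.08 to 0.65, the narrowest span among the 3 members called across tissues. The scaling changed the side of the threshold for 2 of these values. With TMM factors Insr in white adipose tissue was 0.46 and no longer called, and Insr in muscle was 0.57 and called, while heart and kidney stayed called. In the fasting white adipose library the epithelial genes also lay higher (66.4 and 2019 CPM). Fasting heart held more of the hepatocyte list (45.2 and 125 CPM) and of the adipocyte list (417 and 948 CPM). Most of the latter was Fabp4 (370.0 and 831 CPM), while Adipoq of the same list went from 0.871 to 0.262 CPM. The part of these cells in the Insr values was not tested. Per length the order of tissues ran from white adipose tissue (23.2 to 34.4 RPKM) to spleen (9.02 to 10.8 RPKM), and 6 of the 7 neighbouring pairs overlapped. With TMM factors liver came first, at 33.0 to 37.9 RPKM, and spleen stayed last.

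Igf1r (ENSMUSG00000005533.10, chr7:67952827-68233668, plus strand), the IGF1 receptor, rose in 4 tissues. It went from 79.0 to 180.1 CPM in white adipose tissue, from 35.1 to 76.7 CPM in brown adipose tissue, from 31.0 to 59.2 CPM in muscle and from 61.3 to 92.9 CPM in heart. The ratios were 2.28 (2.16–2.41), 2.19 (1.97–2.42), 1.91 (1.75–2.08) and 1.51 (1.40–1.64). Kidney and lung, where the receptor was most abundant, did not follow: kidney held 423 CPM fed and 378 CPM fasting, and lung 201 and 229.9 CPM. Igf1 fell in muscle and both adipose tissues, where Igf1r rose, and also in kidney and lung, where Igf1r was not called. In heart Igf1r rose and Igf1 was not called. In the fasting white adipose library the epithelial genes also lay higher (66.4 and 2019 CPM), and the kidney tubule list was at 34.5 and 40.1 CPM. The part of the epithelial genes in the white adipose value of Igf1r was not tested. Liver had by far the least, at 10.2 and 11.3 CPM, and its 0.605 to 0.675 RPKM overlapped no other tissue, with TMM factors as well. The ratio of the receptors per length therefore ran widely, with Insr at 36.8 times Igf1r in fed liver (32.3–42.1) and at 0.455 times in fed kidney (0.437–0.473). Under fasting conditions it was 34.8 in liver and 0.758 in kidney. It was lower in the fasting than in the fed library of white adipose tissue (4.94 and 3.21), brown adipose tissue (9.18 and 5.36) and muscle (4.96 and 3.66).

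Irs1 and Irs2 encode the main adaptors of both receptors, and they parted under fasting conditions. Irs2 (ENSMUSG00000038894.7, chr8:10984681-11008458, minus strand) was higher in the fasting library in all 8 tissues and rose in 5. The ratio was largest in heart, which went from 20.7 to 107 CPM, at 5.19 (4.62–5.83). Brown adipose tissue went from 120.4 to 281 CPM, liver from 27.1 to 61.9 CPM, muscle from 46.0 to 80.1 CPM and white adipose tissue from 157 to 232 CPM, with ratios of 2.34, 2.28, 1.74 and 1.48. Lung (66.2 and 93.2 CPM), spleen (56.5 and 66.8 CPM) and kidney (76.2 and 84.1 CPM) were not called. With TMM factors the rise of Irs2 in white adipose tissue, 0.46, was lost and that in lung, 0.57, was gained. The epithelial genes lay higher in the fasting white adipose library (66.4 and 2019 CPM), and their part in its Irs2 value was not tested. In fed heart Irs2 was the lowest of all 16 libraries in CPM, and in fasting heart it was above fasting liver, spleen, kidney and lung. The fasting heart library also held more of the 10 hepatocyte genes (45.2 CPM fed, 125 CPM fasting). The 8 adipocyte genes summed to 417 and 948 CPM in heart, of which Fabp4 was 370.0 and 831 CPM. Adipoq, of the same list, went the other way, from 0.871 to 0.262 CPM. Liver and white adipose tissue hold the hepatocyte and adipocyte lists at 112206 and 21159.9 CPM in the fasting libraries, with Irs2 at 61.9 and 232 CPM. Their part in the Irs2 value was not tested.

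Irs1 (ENSMUSG00000055980.2, chr1:82233101-82291416, minus strand) was called in brown adipose tissue alone, where it fell from 164 to 113 CPM (ratio 0.689, 0.647–0.733). Elsewhere its log2 fold change lay between -0.29 in heart and 0.12 in liver and kidney. Across tissues it was -0.08 ± 0.08 (edgeR, adjusted p = 0.573). Its level differed mostly between tissues, from 24.3 to 24.6 RPKM in white adipose tissue to 2.89 to 3.10 RPKM in spleen, and only brown adipose tissue and heart overlapped as neighbours in that order. With TMM factors muscle came first, at 35.5 to 38.0 RPKM, ahead of white adipose tissue at 17.6 to 19.2 RPKM, and spleen stayed last. Both adaptors carry CAAAACA in the promoter windows printed above, Irs1 at a pair of places and Irs2 at one. The ratio of Irs2 to Irs1 per length was higher in the fasting library of all 8 tissues. It was 0.210 (0.187–0.234) in fed and 1.33 (1.24–1.42) in fasting heart, and 1.06 (1.0–1.13) and 3.61 (3.41–3.83) in brown adipose tissue. Muscle went from 0.340 to 0.669, so that Irs1 stayed the more abundant transcript there. Liver went from 0.456 (0.417–0.50) to 0.958 (0.898–1.02), where the fasting interval includes equal levels. The intervals of the fed and fasting kidney overlapped (1.84 and 1.88). A gene model on the opposite strand overlaps 30.9% of the exon bases of Irs1, and another 2.6% of those of Irs2. These models held at most 1 and 36 counts in any library. The strand setting of the counts is not known, and the effect of the overlap on Irs1 and Irs2 was not tested.

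**Figure D4:**
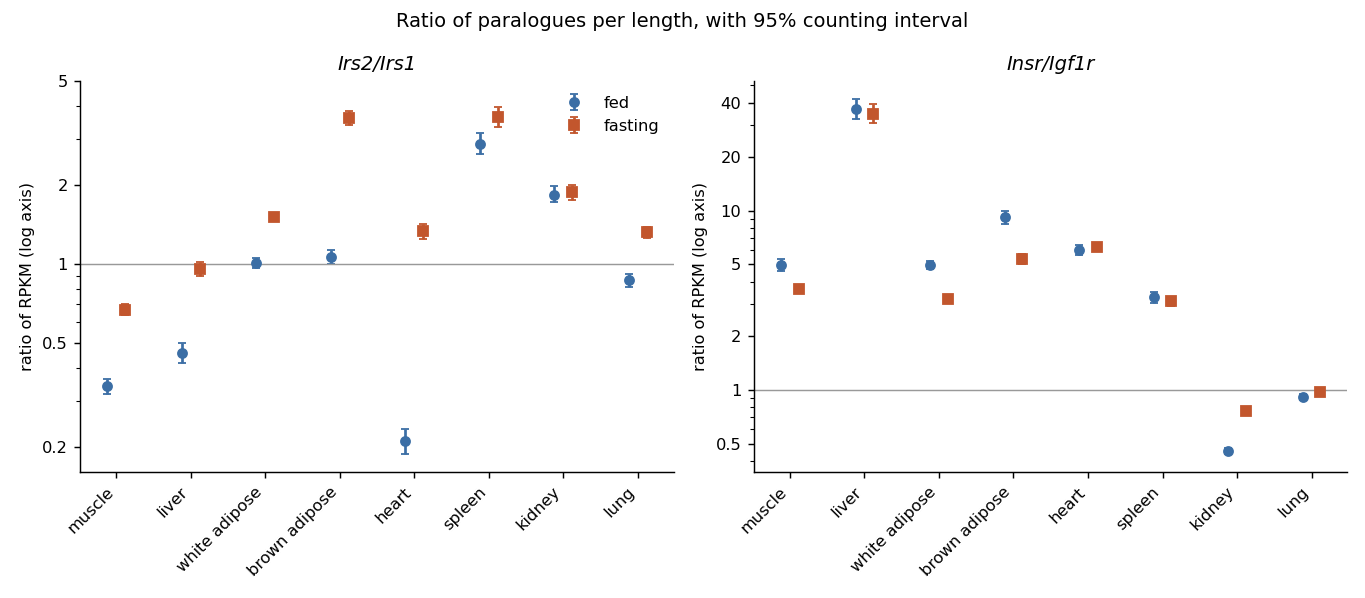
Ratio of Irs2 to Irs1 (left) and of Insr to Igf1r (right) in RPKM, on log axes, in the fed (circle) and fasting (square) library of each tissue, with 95% counting intervals. The Irs2 to Irs1 ratio lay higher under fasting conditions in all 8 tissues, most of all in heart (0.210 and 1.33), and the Insr to Igf1r ratio ran from 0.455 in fed kidney to 36.8 in fed liver.

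The intracellular members below the adaptors gave no called rise. Pik3r1 (ENSMUSG00000041417.15, chr13:101680563-101768217, minus strand), which encodes the p85 regulatory subunit, fell in white adipose tissue from 656 to 339.6 CPM, a ratio of 0.517 (0.504–0.531). It also fell in brown adipose tissue, from 345 to 222 CPM, and in liver, from 145 to 101 CPM. With TMM factors the liver value, -0.40, was no longer called. The epithelial genes lay higher in the fasting white adipose library (66.4 and 2019 CPM), and their part in its Pik3r1 value was not tested. Heart (218 and 281 CPM) and muscle (57.2 and 74.0 CPM) had ratios of 1.29 each, under the threshold, and spleen was at 319 and 368 CPM. The adipose tissues and liver thus stood on the other side of 0 from muscle, heart and spleen, and the estimate across tissues was -0.13 ± 0.16 (edgeR, adjusted p = 0.659). Against its paralogue Pik3r2, Pik3r1 went from 4.43 to 2.60 per length in white adipose tissue and from 2.67 to 1.62 in liver, and from 3.27 to 4.52 in heart.

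Akt2 (ENSMUSG00000004056.15, chr7:27591552-27640826, plus strand), the AKT kinase most tied to insulin's action on glucose, was called in no tissue. Its log2 fold changes lay between -0.24 in lung (106 and 90.4 CPM) and 0.31 in white adipose tissue (277 and 342 CPM), and the estimate across tissues was 0.06 ± 0.07 (edgeR, adjusted p = 0.631). Its level differed more between tissues. Brown adipose tissue had 57.5 to 59.8 RPKM, white adipose tissue 38.8 to 48.0, muscle 23.8 to 27.0 and heart 20.3 to 20.7, with no overlap among these. With TMM factors brown adipose tissue stayed first (55.7 to 56.8 RPKM) and muscle (42.3 to 50.6 RPKM) stood above white adipose tissue (30.3 to 34.7 RPKM). Akt2 exceeded Akt1 per length in muscle (2.76 fed, 3.12 fasting), brown adipose tissue (3.13 and 2.99), white adipose tissue (1.42 and 1.89) and liver (1.12 and 1.11), and was below it in heart, spleen, kidney and lung. Akt2 has a pseudogene, Akt2-ps, at 4.35 to 28.5 CPM, and how reads were shared between them is not known, so Akt2 levels are uncertain to that extent.

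Igfbp1 had the largest called rises of any member, in white adipose tissue and liver. Igfbp1 (ENSMUSG00000020429.7, chr11:7197782-7202546, plus strand), which binds IGFs and is made by the liver when insulin is low, rose in liver from 28.1 to 186 CPM, a ratio of 6.62 (6.10–7.20). Its promoter is the one printed first above. In kidney it rose from 9.67 to 16 CPM, a ratio of 1.65 (1.40–1.96). In white adipose tissue it went from 4 to 179 counts, or 0.172 to 6.53 CPM, a ratio of 38.0 with a wide interval (14.6–141). The other tissues held 10 counts or fewer in any library, and the largest step among them, from 1 to 10 counts in spleen, gave a ratio of 8.14 (1.16–353) that was not called. Alb, the defining hepatocyte gene, was at 72.0 CPM in fed and 67.9 CPM in fasting white adipose tissue. The whole hepatocyte list went from 4178 to 7927 CPM there, led by Pck1 and Cyp2e1, which white adipose tissue itself expresses. The epithelial genes rose in the same library from 66.4 to 2019 CPM, while the kidney tubule list was at 34.5 and 40.1 CPM. Kidney held the epithelial genes at 10142 CPM fed and 8796 CPM fasting, with Igfbp1 at 9.67 and 16 CPM. Lung held them at 1111 and 1025 CPM, with at most 1 count of Igfbp1. The part of the epithelial genes in the white adipose value was not tested. Igfbp1 did not pass the filter of the fit across tissues. With no filter its estimate was 2.25 (edgeR, adjusted p = 0.0138).

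Igfbp2 (ENSMUSG00000039323.18, chr1:72824503-72852474, plus strand), another secreted binding protein, rose in liver from 300.4 to 937 CPM, a ratio of 3.12 (3.04–3.21). White adipose tissue went from 3.74 to 10.9 CPM (ratio 2.93, 2.30–3.76) and kidney from 2.81 to 4.35 CPM (1.55, 1.13–2.14). The epithelial genes lay higher in the same white adipose library, and their part was not tested. The kidney value did not pass with an adjusted p-value in place of the unadjusted one. Lung, the second tissue in level, was at 103 and 97.1 CPM. Muscle, heart and brown adipose tissue held 22 counts or fewer. Across tissues Igfbp2 was 0.65 ± 0.26 (edgeR, adjusted p = 0.165).

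Igfbp3 (ENSMUSG00000020427.11, chr11:7206086-7213923, minus strand), the main carrier of IGF1 in blood, had another distribution. It was highest in kidney (281 and 333 CPM) and spleen, and rose in spleen from 164 to 302 CPM, in white adipose tissue from 27.3 to 104 CPM, in brown adipose tissue from 14.7 to 53.6 CPM and in muscle from 13.9 to 23.9 CPM. The ratios were 1.84 (1.77–1.91), 3.79 (3.48–4.14), 3.65 (3.15–4.23) and 1.72 (1.51–1.96). In liver it was at 20.6 CPM fed and 19.4 CPM fasting. Igfbp3 lies 3539 bases from Igfbp1 on the opposite strand, end to end. In white adipose tissue both genes rose. In liver and kidney Igfbp1 rose and Igfbp3 was not called, and in spleen, brown adipose tissue and muscle the reverse held. In spleen, the acinar genes fell with fasting from 626 to 11.9 CPM while Igfbp3 rose, and in white adipose tissue the epithelial genes rose with it, from 66.4 to 2019 CPM. The part of either in the Igfbp3 values was not tested. The estimate for Igfbp3 across tissues was 0.72 ± 0.23 (edgeR, adjusted p = 0.101; DESeq2, adjusted p = 0.0299).

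Set side by side per length, the transcripts of Igfbp1 to Igfbp6 summed to 379 RPKM in fed and 908 RPKM in fasting liver. Igfbp2 made up 42.9% of that sum fed and 55.9% fasting, Igfbp1 4.87% and 13.5%, and Igfbp4, which is no member, 49.6% and 29.6%. Muscle ran the other way, with a sum of 142 RPKM fed and 59.2 RPKM fasting. Igfbp5, which binds IGFs in the matrix of muscle and bone, fell there from 591 to 98.4 CPM. It also fell in 6 of the other 7 tissues, all but lung (378 and 333 CPM), though the liver value (-0.54) passes the threshold only without the TMM shift of 0.12, and across tissues by 0.92 ± 0.21 on the log2 scale (edgeR, adjusted p = 0.0413). Igfbp5 lies 5457 bases from Igfbp2 on the opposite strand. In white adipose tissue, kidney and liver, Igfbp2 rose and Igfbp5 fell, in liver with the limit just given for Igfbp5. In white adipose tissue the sum was 308 and 321 RPKM, and the share of Igfbp3 went from 2.84% to 10.3%.

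**Figure D5:**
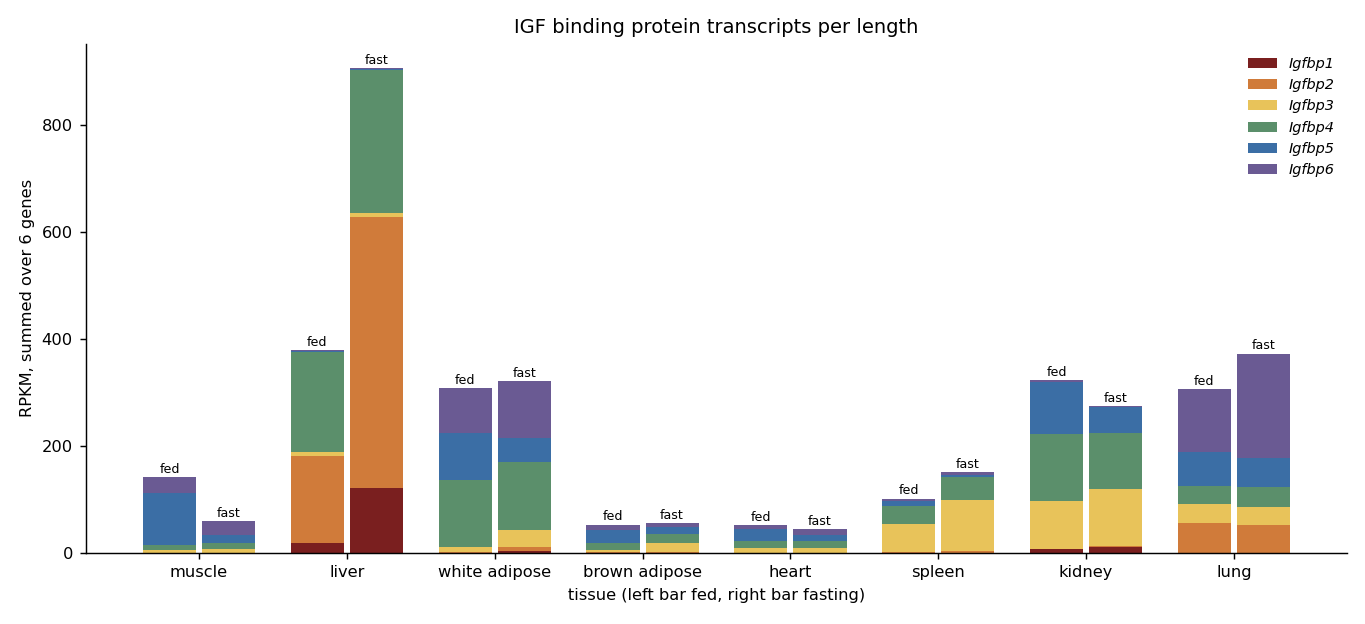
Stacked levels of Igfbp1 to Igfbp6 in RPKM (vertical axis, from 0) in the fed (left bar) and fasting (right bar) library of each tissue. The sum in liver was 379 fed and 908 fasting, mostly Igfbp2 and Igfbp4, and that in muscle was 142 and 59.2, with the step in Igfbp5.

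Beyond the members, 105 genes of the pathway were listed by role, from other IGF binding proteins and adaptors to PI3K subunits, phosphatases, AKT, mTOR and AKT substrates. Across tissues 6 of 98 tested rose and 2 fell, where 2.31% of all genes rose and 2.08% fell, so that the falls were at the background share. The median of the list was 0.03 beside -0.01 for all genes. Of these 8, Pik3ip1, which restrains the PI3K catalytic subunit, rose by 1.26 ± 0.26 (edgeR, adjusted p = 0.0310). Foxo3, one of the FoxO factors that AKT phosphorylates, rose by 0.88 ± 0.16 (edgeR, adjusted p = 0.0192). The kinase Sgk1 rose by 0.83 ± 0.19 (edgeR, adjusted p = 0.0383). Pik3ip1, Foxo3 and Sgk1 were each higher in 8 of 8 tissues. Trib3 and Inpp5k also rose, and are named after their values were seen. Socs1, an inhibitor of cytokine and insulin receptor signalling, fell by 1.09 ± 0.26 (edgeR, adjusted p = 0.0439), and the other fall was that of Igfbp5. Cish (-1.20) and Foxo6 (-1.12) had larger negative estimates that did not pass (edgeR, adjusted p = 0.0687 and 0.159).

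Within tissues the list was called in both directions, among 102 to 104 genes with a count per tissue. It had 10 up and 18 down in muscle, 2 and 17 in liver, 14 and 13 in white adipose tissue, 15 and 15 in brown adipose tissue, 10 and 12 in heart, 6 and 8 in kidney, 9 and 6 in lung, and 1 and 1 in spleen. The shares of all genes called were 4.42% up and 9.39% down in muscle, 4.46% and 9.52% in liver, 13.2% and 5.84% in white adipose tissue, 5.39% and 7.58% in brown adipose tissue, 4.33% and 5.80% in heart, 2.77% and 3.93% in kidney, 2.68% and 6.49% in lung and 2.31% and 1.62% in spleen. Against these shares the rises in white adipose tissue and the falls in lung were near the background, and liver rises and both directions in spleen were below it. The shares are over all genes with a count, and genes with few counts can seldom be called. Only 13701 of 25604 such genes in muscle and 14085 of 25048 in liver reached 1 CPM. Shares among those genes were not taken, so the muscle and liver falls cannot be read as above the background. The liver falls include the islet genes Ins1 (1.61 to 0.0801 CPM) and Ins2 (3.65 to 0.320 CPM). In liver the pancreatic islet list summed to 6.34 CPM fed and 0.841 CPM fasting, and the acinar list to 122 and 272 CPM. The genes named next led among those at 10 CPM or more in a library. The largest rise in brown adipose tissue was that of Pik3ip1, from 4.58 to 50.7 CPM, and the largest fall that of Cish, from 103 to 14.2 CPM. In muscle, Eif4ebp1, the translation inhibitor that mTOR switches off, rose from 30.9 to 143 CPM. Pfkfb2 led the rises in liver (18.1 to 39.1 CPM), Prkcz in white adipose tissue (4.94 to 16.9 CPM), Sgk1 in kidney (56.0 to 198 CPM) and Foxo3 in lung (169 to 314 CPM). Prkcz was at 104 and 82.0 CPM in kidney and 58.7 and 61.9 CPM in lung. The epithelial genes lay higher in the fasting white adipose library (66.4 and 2019 CPM) and the kidney tubule list was at 34.5 and 40.1 CPM, and the part of the epithelial genes in the Prkcz value was not tested. In spleen the single rise was Pik3ip1 (55.5 to 134 CPM) and the single fall Igfbp5 (54.1 to 30.5 CPM). The leading fall in lung was Pik3cd, from 61.5 to 33.5 CPM, a leukocyte PI3K subunit, beside the lower B and T cell genes there. In heart the leading fall was Cish, from 79.3 to 32.4 CPM. The leading rise in heart was Ahsg, from 2.5 to 13 CPM, which is a liver gene and moved with Alb (14 and 51.4 CPM).

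The genes whose levels followed each member most closely over the 16 libraries mirror the tissue pattern, since the points are 8 tissues measured as fed and fasting pairs. Correlations of log2(CPM + 1) among 21965 genes at 1 CPM or more in a library are given as a description. For Igf1r the closest was Timp3 (Pearson r = 0.977, Spearman rho = 0.953), for Irs1 Nfix (0.930 and 0.953), for Igfbp2 Il1rap (0.965 and 0.906) and for Pik3r1 Smurf1 (0.932 and 0.85). Igfbp3 was closest to Tpd52 (0.948 and 0.812), Igf1 to Wfdc21 (0.902 and 0.726) and Irs2 to Peg3 (0.846 and 0.847). Insr was closest to Gm34934 (0.894 and 0.909) and Igfbp1 to Gm16035 (0.975 and 0.821), both unnamed gene models. For Akt2 it was the pseudogene Akt2-ps (0.983 and 0.856), which may share reads with it.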

How the data were processed

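RNA of 8 tissues from fed and fasting mice, each a pool of 3 animals, was sequenced as strand-specific paired-end libraries of 100 bp reads. According to the study's methods and the submitters' processing notes, the authors used HISAT2 2.2.1.0 for alignment to GRCm38, after trimming (fastp 0.23.2) and quality checks (FastQC 0.11.8). Counts per gene came from featureCounts of Subread 2.0, with the GENCODE annotation of release M24. The strand setting, and whether reads or pairs were counted, are not given in the sources used here. The deposited values are raw counts per gene with a gene length, and all 16 sample columns were used. Gene names came from a table of the same build, which matched 55144 of 55385 identifiers.

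CPM used the column totals, 14245178 to 36069968, and RPKM divided CPM by the deposited length. Intervals are exact 95% intervals and cover counting error only. Within a tissue, Fisher's exact test compared the 2 libraries, by a purpose-written routine that was checked on sampled genes against scipy 1.17.1. Across tissues, edgeR 4.0.16 (R 4.3.3) fitted quasi-likelihood models with tissue and treatment terms, TMM factors and filterByExpr, with Benjamini-Hochberg adjustment over all genes tested. The alternatives were another pseudocount, scaling, filter, threshold and p-value, an assumed coefficient of variation, DESeq2 1.42.0, a fit with no tissue term, and tissues left out, and they were run for the members. The study's methods state fold and Fisher thresholds, which were used here.

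The members and lists were chosen with earlier results of these data known. All 10 members are named. Of the pathway lists, the 3 largest rises and falls across tissues are named, and per tissue the largest called rise and fall at 10 CPM or more. The epithelial list and the runs without the white adipose, brown adipose, spleen or lung libraries were chosen after seeing the data. Single values of some list genes are not reported here.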

Additional observations from a re-analysis of the deposited data

How the results depend on the processing

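The tissue block of the fit across tissues pairs each fed with its fasting library, and 1 alternative left it out (no tissue term). Pairing by replicate number could not be added, as each tissue and condition is 1 library. Within tissues, 629 of 705 member values under the alternatives kept their side of the thresholds, 72 called values no longer passed, 4 passed only there and none reversed; 7 values that were not called changed sign. Requiring a log2 fold change of 1 left 3 members called in liver, 4 in brown adipose tissue, 1 in muscle, 4 in white adipose tissue and 1 in heart, and 0 in spleen, kidney and lung. An assumed coefficient of variation of 0.2 (edgeR's exact test) gave the same counts in these 8 tissues: 3, 4, 1, 4, 1, 0, 0 and 0. With 0.4, 1 member stayed called in liver, 1 in white adipose tissue and 1 in heart, and 0 in muscle, brown adipose tissue, spleen, kidney and lung. TMM or DESeq2 size factors gave 2 calls in lung, where library totals gave 1. Of the 31 calls, 23 remained without the white adipose libraries, 30 without spleen, 30 without lung and 25 without brown adipose tissue, since those calls left with their libraries. With TMM factors 9 of the 10 members changed some place in their order of tissues, and the first tissue changed for Insr (to liver) and Irs1 (to muscle). Across tissues, of 135 member values under the alternatives, 23 values of the 3 called members no longer passed, 4 values of other members passed and none reversed. Plain library totals lost Igf1r (edgeR, adjusted p = 0.0630) and gained Igf1, and robust dispersion lost Irs2 (0.0521). The 3 called members were 6 with DESeq2's Wald test, which added Igf1, Igfbp3 and Igfbp1 (edgeR's filter had removed Igfbp1), 0 with no tissue term, 0 without both adipose tissues, and between 1 and 3 with each tissue left out. The tissues whose absence left 1 call were muscle, liver, white adipose, brown adipose, heart and lung. With 1 library per group, no depth of sequencing gives the spread between mice, and Igfbp1 in muscle, brown adipose, heart, spleen and lung rests on 10 counts or fewer.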
